A study of Homo sapiens with 12 samples.

Results

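The 47 genes described here encode the factors that start protein synthesis in human cells and the 4 kinases that restrain it by phosphorylating eIF2. They were taken by symbol from the count tables, which hold 55242 genes once rRNA genes are removed, and all 47 symbols were found. The members are 3 eIF1 genes, 4 genes listed under eIF2 (the 3 subunit genes and EIF2A), 5 eIF2B subunit genes, 4 eIF2 kinase genes, 13 eIF3 genes, 11 eIF4 genes, 2 4E-BP genes and 5 genes for eIF5, eIF5A, eIF5B and eIF6. RNA-seq was done on Hs578T, a triple-negative breast cancer (TNBC) cell line, transduced with a lentivirus for the expression of GFP (the control) or of full-length NRF2, the transcription factor encoded by NFE2L2. Both populations were kept for 8 h in medium with l-cystine (Cyss) at 0.8 mM or in medium without it, both media holding the same serum, methionine and glutamine, and each of the 4 groups has 3 libraries. The labels do not say whether the 3 libraries of a group came from separate cultures, so the p-values measure the spread between these libraries only.

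A ribosome starts on an mRNA when eIF2, a GTPase of subunits α, β and γ, brings the initiator tRNA to the small subunit, helped by eIF1, eIF1A and the large eIF3 complex. eIF4E binds the cap of the mRNA, eIF4G is the scaffold that joins eIF4E to the helicase eIF4A and to eIF3, and the 4E-BPs block initiation by occupying eIF4E. eIF2B reloads eIF2 with GTP, and when amino acids are short, haem is lacking, proteins misfold or double-stranded RNA is present, the kinases GCN2, HRI, PERK and PKR phosphorylate the α subunit, which holds eIF2B inactive, lowers general translation and favours a few mRNAs such as that of ATF4. The libraries report mRNA, and neither protein nor phosphorylation was measured in them.

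The libraries held 27250993 to 44596870 reads on genes, and the GFP libraries with Cyss, at 37871221 or more, were deeper than all others. NFE2L2 had 3647 to 3842 normalized counts in the GFP libraries with Cyss and 6598 to 6940 in NRF2 cells with Cyss, and 4501 to 4655 against 7401 to 8396 without Cyss, so that in either medium every NRF2 library was above every GFP library. The line's mesenchymal markers summed to between 35144 and 38314 CPM in all 12 libraries, where CPM are the reads of a gene scaled to one total per library. The 8 epithelial markers summed to 33.1 to 36.9 CPM in GFP cells with Cyss and 39.5 to 49.9 without, and to 27.8 to 30.7 CPM in NRF2 cells with Cyss and 39.5 to 46.99 without. KRT18, at 23.0 to 43.8 CPM, made up most of that sum, while EPCAM, KRT19, CLDN3, CLDN7 and ESRP1 were at 0 in at least 1 library and at most 0.0979 CPM in any. The leukocyte markers summed to at most 1.81 CPM, with CD3E at 0 in all libraries, and the 3 endothelial markers found of 4 summed to 1.27 to 1.86 CPM, apart from 2.09 to 2.59 in NRF2 cells without Cyss. The part of these differences in the results below was not tested. On the leading principal component, which held 26.9% of the variance, GFP without Cyss replicate 3 lay at 3.61, away from the other 2 libraries of its group at -12.0 and -9.21, while NRF2 without Cyss replicate 1 had 7.84% of its reads on no feature, against 6.25 and 6.30% in the other 2 libraries of its group. For the members called and the kinases, values without these libraries, or the range over all fits that leave out a library, are given beside the result. The libraries come from bulk cultures, so fewer cells of a kind and less RNA per cell cannot be told apart.

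Normalized counts below are read counts scaled by TMM over the 12 libraries to the mean library. A log2 fold change (log2FC) compares the 3 libraries of a group with the 3 of another, and a gene was called a DEG when its adjusted p in edgeR's quasi-likelihood test, adjusted over all genes tested, was under 0.1 and its log2FC was above 0.32 in size. All 47 members passed the filter on low counts in every comparison. Together they took 9587 ± 53.2 CPM (SD, n = 3) in GFP cells with Cyss, 9830 ± 96.2 CPM in GFP cells without Cyss, 9228 ± 102 CPM in NRF2 cells with Cyss and 9888 ± 153 CPM in NRF2 cells without Cyss.

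Per kilobase of annotated exon, levels in GFP cells with Cyss spanned from 0.432 CPM per kb for EIF4E3, an eIF4E relative, to 198 CPM per kb for EIF4G2, an eIF4G relative that does not bind eIF4E. EIF5A (169 CPM per kb), EIF4G1 (109) and EIF4EBP1 (102) followed EIF4G2. The eIF2 kinase genes were at 25.9 CPM per kb for EIF2AK1 (HRI), 8.89 for EIF2AK4 (GCN2), 7.08 for EIF2AK2 (PKR) and 0.962 for EIF2AK3 (PERK), in that order, whereas the gene of their substrate, EIF2S1 (eIF2α), was at 30.8. Exon length here is the union of all annotated exons, so genes with many long isoforms come out low.

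Cyss deprivation of GFP cells raised 3 of the 47 mRNAs and lowered 0 past both thresholds, where 1.57% of the 17452 genes tested were DEGs that rose and 0.533% were DEGs that fell. The 3 were EIF4EBP1, EIF2S2 and EIF1, which act at separate steps: the cap, the eIF2 complex and the choice of the start codon. In NRF2 cells the same 3 rose, together with EIF3C and EIF5A2, so that 5 of the 47 rose and none fell, where 6.81% of the 17266 genes tested rose and 5.14% fell. With scaling by library size only, that split over all genes in NRF2 cells turned from 1176 higher and 887 lower to 936 higher and 1397 lower, while the members counted stayed at 5 higher and none lower. The median log2FC of the 47 members was 0.033 in GFP cells and 0.048 in NRF2 cells, against 0.0015 and -0.012 over all genes. DESeq2's Wald test also called 3 and 5 members higher and 0 lower, and at an unadjusted p under 0.05 in edgeR 10 members were higher and 5 lower in GFP cells, where 8.51% and 9.59% of all genes were, and 17 higher and 1 lower in NRF2 cells, where 17.5% and 16.6% of all genes were.

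**Figure D1:**
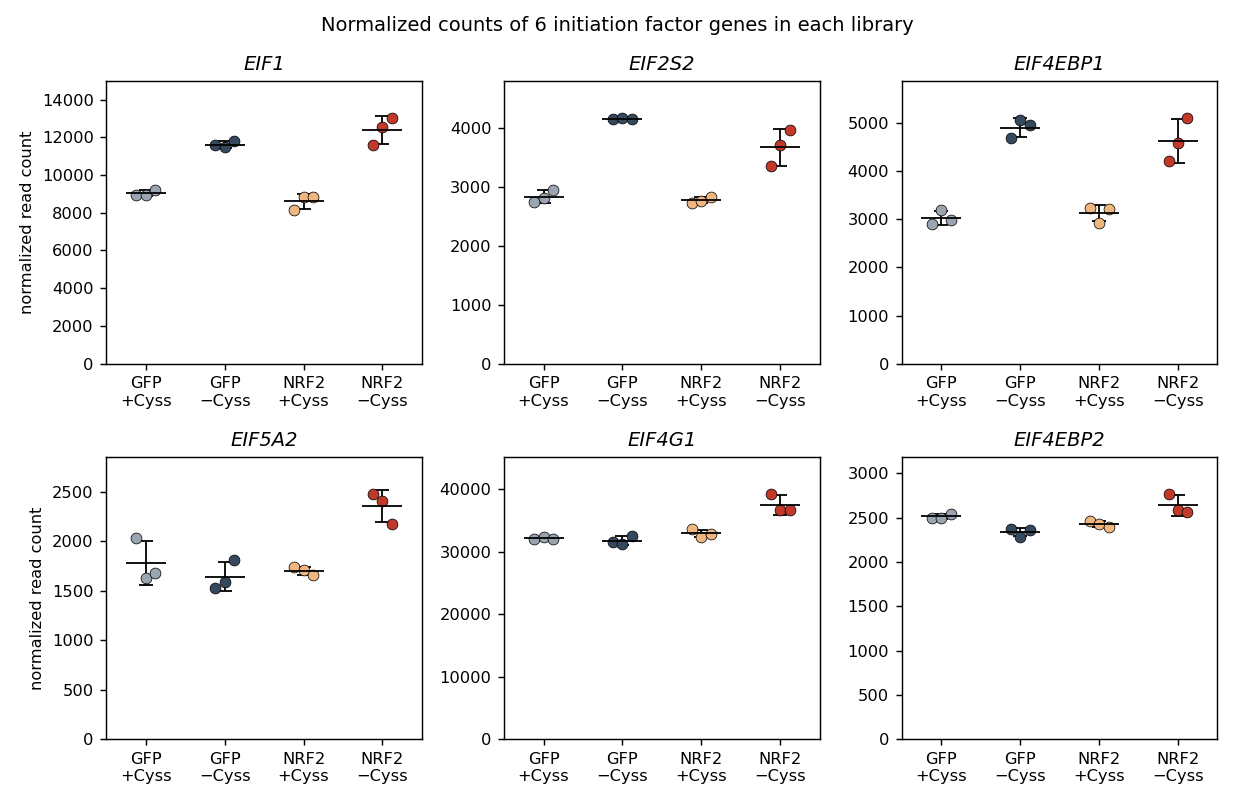
Normalized read counts (vertical axes, from 0) of 6 genes in the 12 libraries, by group (horizontal axes; + and − mark medium with and without Cyss); each point is a library, and the bar with whiskers is the mean ± SD of 3. EIF1, EIF2S2 and EIF4EBP1 are higher without Cyss in both populations, while EIF5A2, EIF4G1 and EIF4EBP2 are highest in NRF2 cells without Cyss.

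EIF4EBP1 encodes 4E-BP1, the cap-binding inhibitor that mTORC1 switches off by phosphorylation and whose gene is a known target of ATF4. It had 2907, 3189 and 2994 normalized counts in the GFP libraries with Cyss and 4685, 5069 and 4965 in those without. In NRF2 cells it had 3244, 2928 and 3218 with Cyss and 4202, 4580 and 5106 without. The groups with and without Cyss did not overlap in either population. The log2FC was 0.69 ± 0.046 (SE, adjusted p = 6.72e-07) in GFP cells and 0.56 ± 0.065 (adjusted p = 1.72e-05) in NRF2 cells, and the responses of the 2 populations were not shown to differ (difference -0.13 ± 0.087, 95% interval -0.31 to 0.05, adjusted p = 0.383). Per kilobase, EIF4EBP1 went from 102 to 166 CPM per kb in GFP cells.

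The other 4E-BP gene, EIF4EBP2, was not a DEG in either population. It had 2496, 2501 and 2547 normalized counts in the GFP libraries with Cyss and 2372, 2286 and 2365 without, a log2FC of -0.10 ± 0.039 (adjusted p = 0.171). The NRF2 libraries had 2457, 2429 and 2398 with Cyss and 2771, 2583 and 2559 without, a log2FC of 0.12 ± 0.049 with an adjusted p just under 0.1 (0.09996) and a size below the fold threshold. In GFP cells all 3 libraries without Cyss lay below those with Cyss, and in NRF2 cells all 3 lay above.

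EIF2S2 encodes eIF2β, the subunit through which eIF2 meets eIF5 and eIF2B (chr20:32676115-32700049 in GRCh37, minus strand). Its normalized counts were 2739, 2811 and 2945 in GFP cells with Cyss and 4151, 4163 and 4143 without. They were 2723, 2754 and 2821 in NRF2 cells with Cyss and 3341, 3698 and 3960 without, again with no overlap. The log2FC was 0.55 ± 0.039 (adjusted p = 1.39e-06) in GFP cells and 0.40 ± 0.057 (adjusted p = 0.000119) in NRF2 cells. Without Cyss, the NRF2 cells had less EIF2S2 than the GFP cells, at a log2FC of -0.19 ± 0.058 (adjusted p = 0.0347), below the fold threshold.

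The genes of the other eIF2 subunits stayed below the fold threshold. EIF2S1, whose product carries the serine that the kinases phosphorylate, had 5582, 5387 and 5555 normalized counts in the GFP libraries with Cyss and 5281, 5354 and 5625 without, and its log2FC of -0.02 had a 95% interval of -0.11 to 0.06. Its counts in NRF2 cells were 4926, 5060 and 5240 with Cyss and 5309, 5642 and 5482 without, a log2FC of 0.11 (95% interval 0.01 to 0.21, adjusted p = 0.104). EIF2S3 (eIF2γ) passed the adjusted p in NRF2 cells only, at a log2FC of 0.23 ± 0.046 (adjusted p = 0.00254) against 0.08 ± 0.040 (adjusted p = 0.321) in GFP cells, and the difference itself, 0.15 ± 0.058, did not pass the test (adjusted p = 0.122). EIF2A, which is not a subunit of eIF2 in spite of its name, was at 0.01 and 0.10 in the 2 populations.

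EIF1, the gatekeeper of start codon choice (chr17:39845137-39848920, plus strand), had 8918, 8963 and 9209 normalized counts in the GFP libraries with Cyss and 11575, 11472 and 11799 without. The NRF2 libraries were at 8161, 8830 and 8823 with Cyss and at 11577, 12562 and 13027 without. The lowest library without Cyss was thus above the highest with Cyss in both populations. The log2FC was 0.36 ± 0.034 (adjusted p = 2.15e-05) in GFP cells and 0.52 ± 0.052 (adjusted p = 3.49e-06) in NRF2 cells, with a difference of 0.16 ± 0.063 that did not pass the test (adjusted p = 0.115). Its relatives EIF1B and EIF1AX were not called in any comparison. EIF5, which opposes EIF1 at the start codon, moved the other way in GFP cells, from 13141, 12499 and 12914 normalized counts with Cyss to 11371, 11321 and 11505 without, a log2FC of -0.17 ± 0.035 (adjusted p = 0.0141) that is below the fold threshold. In NRF2 cells its log2FC was -0.04 ± 0.042 (adjusted p = 0.493).

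For EIF1, EIF2S2 and EIF4EBP1 the rise in GFP cells was at a log2FC of 0.35, 0.55 and 0.69 without GFP without Cyss replicate 3, with adjusted p of 0.000118, 7.16e-06 and 3.69e-06. Over all 6 fits that each leave out a library, EIF4EBP1 ranged from 0.67 to 0.73 in GFP cells and from 0.49 to 0.63 in NRF2 cells, and the call held in each. Without NRF2 without Cyss replicate 1 the NRF2 response was 0.57 for EIF1, 0.47 for EIF2S2 and 0.63 for EIF4EBP1. EIF5 in GFP cells was at -0.18 (adjusted p = 0.0330) without GFP without Cyss replicate 3.

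No eIF2 kinase gene was a DEG in any of the 4 comparisons or the interaction, by edgeR or by DESeq2, and the 4 log2FC without against with Cyss were below 0 in both populations, also with DESeq2's size factors and with library size only, at a median of -0.11 in GFP cells and -0.10 in NRF2 cells. EIF2AK2 (PKR) had 2697, 2472 and 2707 normalized counts in the GFP libraries with Cyss and 2426, 2311 and 2073 without, a log2FC of -0.21 ± 0.058 (adjusted p = 0.0726) below the fold threshold, which became -0.15 (adjusted p = 0.195) without GFP without Cyss replicate 3. NRF2 cells had 2561, 2572 and 2384 counts of PKR with Cyss and 2585, 2268 and 2030 without, groups that overlapped (log2FC -0.13, adjusted p = 0.228). That value was -0.22 (adjusted p = 0.00664) without NRF2 without Cyss replicate 1 and -0.047 (adjusted p = 0.589) without NRF2 without Cyss replicate 3. EIF2AK3 (PERK) had 724, 736 and 746 normalized counts in NRF2 cells with Cyss and 636, 652 and 677 without, a log2FC of -0.17 ± 0.059 (adjusted p = 0.0558, up to 0.171 with a library left out). In GFP cells PERK had 646, 666 and 694 with Cyss and 643, 592 and 634 without (log2FC -0.10, adjusted p = 0.367). At any fold, 1 kinase gene passed the adjusted p as lower in each population, where 2.81% of all genes did in GFP cells and 13.8% in NRF2 cells. With scaling by library size only, 3 of the 4 passed it in NRF2 cells, HRI at -0.13 (adjusted p = 0.0438), PKR at -0.19 (adjusted p = 0.0690) and PERK at -0.23 (adjusted p = 0.0118). That scaling also moved the median log2FC over all genes in NRF2 cells from -0.012 to -0.071. With it, 1397 of the 17279 genes tested were DEGs that fell, against 887 of 17266 with TMM. The count of 3 is thus not shown to be particular to the kinases.

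EIF2AK4 (GCN2), the kinase that senses uncharged tRNA, had 3628, 3563 and 3554 normalized counts in the GFP libraries with Cyss and 3392, 3269 and 3307 without, with no overlap between the groups. Its log2FC was -0.11 (95% interval -0.19 to -0.03, adjusted p = 0.142), and in NRF2 cells, at 3435, 3582 and 3444 with Cyss and 3540, 3297 and 3344 without, it was -0.04 (interval -0.15 to 0.06). EIF2AK1 (HRI) had 4692, 4663 and 4955 normalized counts in the GFP libraries with Cyss and 4768, 4579 and 4675 without, and in NRF2 cells 4583, 4798 and 4791 with Cyss and 4501, 4594 and 4418 without. HRI had log2FC of -0.03 (interval -0.11 to 0.05) and -0.07 (interval -0.16 to 0.02). Without GFP without Cyss replicate 3 the GFP values were -0.10 for GCN2, -0.11 for PERK and -0.03 for HRI, with adjusted p of 0.265 or more, and without NRF2 without Cyss replicate 1 the NRF2 values were -0.070, -0.15 and -0.068, with adjusted p of 0.108 or more. Of the 16 intervals for the 4 kinases over the 4 comparisons, only that of PKR in GFP cells reached beyond 0.32 in size, at -0.34.

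**Figure D2:**
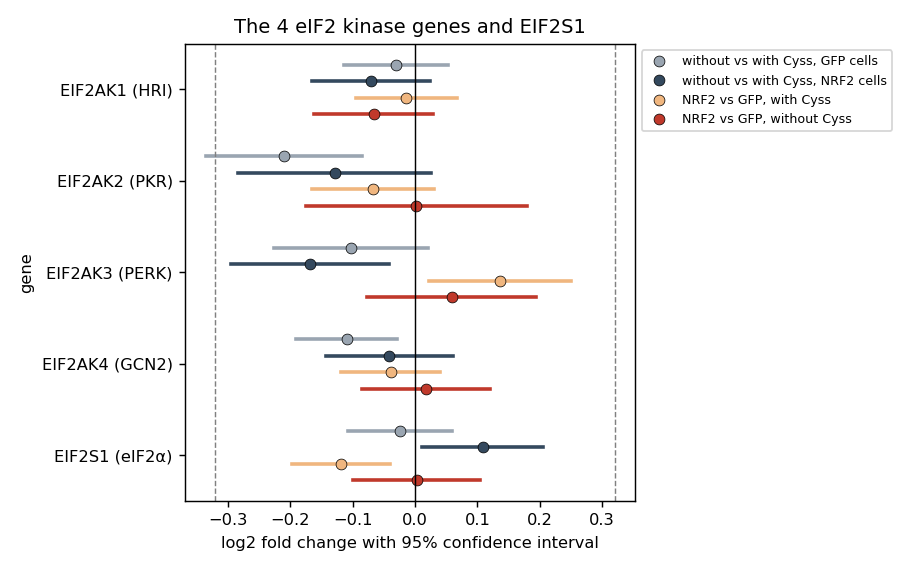
Log2 fold change with 95% confidence interval (horizontal axis) for the 4 eIF2 kinase genes and EIF2S1 (vertical axis) in the 4 comparisons, shown by colour; dashed lines mark the fold threshold of 0.32 on either side of 0. All points lie inside the dashed lines, from -0.21 for EIF2AK2 in GFP cells to 0.14 for EIF2AK3 in NRF2 against GFP cells with Cyss.

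None of the 5 eIF2B genes passed the adjusted p in edgeR in any of the 4 comparisons. At an unadjusted p under 0.05, 1 was higher in GFP cells without Cyss, EIF2B2, and 1 lower for NRF2 against GFP cells without Cyss, EIF2B3, where 18.1% of all genes were lower and 16.4% higher. Their log2FC without against with Cyss ran from -0.05 to 0.14 in GFP cells and from -0.07 to 0.08 in NRF2 cells, with EIF2B2 (eIF2Bβ) the highest in both.

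The eIF3 genes, which encode the largest initiation complex, showed 1 DEG among 13, EIF3C in NRF2 cells. It had 168, 196 and 193 normalized counts with Cyss and 299, 261 and 189 without, so that replicate 3 without Cyss lay within the range with Cyss. The log2FC was 0.42 ± 0.14 (adjusted p = 0.0479), and the call was lost in 5 of the 6 fits that leave out a library, with an adjusted p of 0.101 to 0.161 and a log2FC down to 0.27, and held only without NRF2 without Cyss replicate 3, the low one. In GFP cells EIF3C had 182, 183 and 184 with Cyss and 202, 225 and 247 without (log2FC 0.29 ± 0.090, adjusted p = 0.102). EIF3C has a near-identical neighbour, EIF3CL, on which 4 reads were counted in all 12 libraries, and reads that match both genes are dropped when only uniquely mapped reads are kept, so the counts of EIF3C are uncertain.

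At any fold, 2 more eIF3 genes passed the adjusted p in NRF2 cells. EIF3A, the scaffold subunit (chr10:120793182-120840329, minus strand), had 14762, 15671 and 15288 normalized counts with Cyss and 18258, 17800 and 17483 without, a log2FC of 0.23 ± 0.043 (adjusted p = 0.00164). In GFP cells EIF3A had 16365, 16030 and 16570 with Cyss and 16765, 16534 and 17377 without, a log2FC of 0.05 ± 0.034. EIF3J, a loosely bound subunit, was at 0.14 ± 0.043 (adjusted p = 0.0333) in NRF2 cells. The other 10 eIF3 genes lay between -0.04 and 0.11 in NRF2 cells and between -0.04 and 0.11 in GFP cells.

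Counting every member that passed the adjusted p at any fold, 3 were higher and 2 lower in GFP cells, where 3.11% and 2.81% of all genes were, and 12 were higher and 1 lower in NRF2 cells, where 15.2% and 13.8% of all genes were. Across the 47 members the sign of the log2FC was the same in both populations for 22 higher and 10 lower genes, 5 were higher in GFP cells only and 10 in NRF2 cells only. Pearson's r between the 2 responses was 0.697 and Spearman's rho 0.459 over 47 genes, which are not independent replicates, and the 2 responses share no library.

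**Figure D3:**
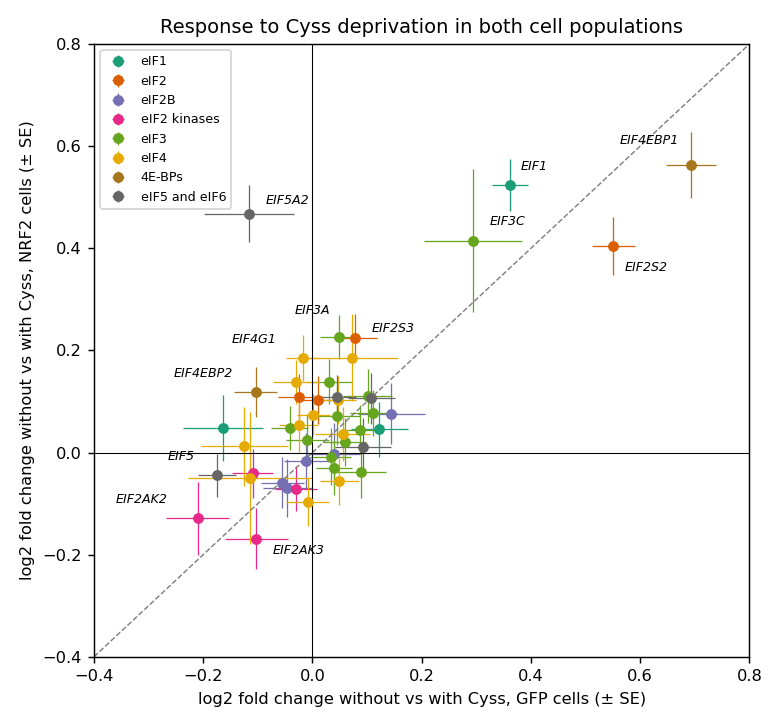
Log2 fold change without against with Cyss in GFP cells (horizontal axis) and in NRF2 cells (vertical axis) for the 47 members, with SE bars and a colour for each complex; the dashed line marks equal responses. EIF1, EIF3C, EIF2S2 and EIF4EBP1 lie to the upper right, and EIF5A2 lies farthest above the line, at -0.12 in GFP cells and 0.47 in NRF2 cells.

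Whether the response to the loss of Cyss differed between the populations was asked with an interaction term over the 12 libraries. The term was above 0 with an adjusted p under 0.1 for 5 of the 47 members and below 0 for none, where 8.97% of the 17674 genes tested were above and 6.13% below. The 5 were EIF5A2, EIF4EBP2, EIF4G1, EIF3A and EIF4G3. With scaling by library size only, the split over all genes turned from 1585 above and 1084 below to 1124 above and 1981 below, and that of the members to 3 above (EIF4EBP2, EIF4G1 and EIF5A2) and 2 below (EIF2S2 and EIF4A2). DESeq2's Wald test called 5 members above and 0 below, and at an unadjusted p under 0.05 edgeR had 9 above and 0 below, where 13.5% and 11.2% of all genes were. Without GFP without Cyss replicate 3, 6 members were above, with EIF2S1 added at 0.16 (adjusted p = 0.0950), and without NRF2 without Cyss replicate 1, 8 were, with EIF1, EIF2S1 (0.15, adjusted p = 0.0956) and EIF5 added. The shares of all genes in those fits are not given here, so these rises are not shown to be particular to the members. EIF5A2 had the largest difference of the 47.

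EIF5A2 encodes the second human form of eIF5A, the hypusine-bearing factor that helps ribosomes over difficult stretches such as proline runs (chr3:170606207-170626433 in GRCh37, minus strand). In GFP cells it had 2032, 1629 and 1679 normalized counts with Cyss and 1529, 1593 and 1809 without, with overlap and with replicate 1 with Cyss the highest. The NRF2 libraries were at 1738, 1707 and 1661 with Cyss and at 2482, 2408 and 2178 without, so that the 3 NRF2 libraries without Cyss were above the other 9 libraries. The log2FC was -0.12 ± 0.082 (adjusted p = 0.485) in GFP cells and 0.47 ± 0.056 (adjusted p = 2.43e-05) in NRF2 cells, a difference of 0.58 ± 0.11 (adjusted p = 0.00263). Without GFP without Cyss replicate 3 the difference was 0.66 (adjusted p = 0.000454), and over the 12 fits that leave out a library it ranged from 0.48 to 0.66. The main form, EIF5A, which is far more abundant per kilobase (169 against 9.56 CPM per kb in GFP cells with Cyss), had log2FC of 0.05 in GFP cells and 0.11 ± 0.044 (adjusted p = 0.0986) in NRF2 cells, and the 2 responses were not shown to differ (0.06, 95% interval -0.05 to 0.18).

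EIF4G1 and EIF4G3 encode the scaffolds eIF4GI and eIF4GII of the cap-binding complex. EIF4G1 (chr3:184032283-184053146, plus strand) had 31984, 32411 and 31997 normalized counts in the GFP libraries with Cyss and 31487, 31292 and 32546 without. Counts in NRF2 cells were 33561, 32391 and 32886 with Cyss and 39290, 36591 and 36612 without, again above every other library. The log2FC was -0.02 ± 0.032 in GFP cells and 0.19 ± 0.045 (adjusted p = 0.00804) in NRF2 cells, with a difference of 0.20 ± 0.052 (adjusted p = 0.0218) that was 0.22 without GFP without Cyss replicate 3 and 0.17 without NRF2 without Cyss replicate 1.

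EIF4G3 (chr1:21132785-21503778, minus strand) had 4347, 4021 and 4341 normalized counts in the GFP libraries with Cyss and 4203, 4042 and 4204 without. NRF2 cells were at 4278, 4339 and 4259 with Cyss and 4727, 4770 and 4688 without, and the 3 without Cyss were the highest of the 12. The difference of the responses was 0.17 ± 0.057 (adjusted p = 0.0691), a call lost in 8 of the 12 fits that leave out a library, with an adjusted p of up to 0.199 and a log2 difference of 0.15 to 0.18. It held without GFP with Cyss replicate 2, GFP without Cyss replicate 3 and NRF2 without Cyss replicates 1 and 3. EIF4G2 had a difference of 0.07 ± 0.047 (adjusted p = 0.35).

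For EIF4EBP2 (chr10:72163901-72188374, plus strand) the difference was 0.22 ± 0.059 (adjusted p = 0.0248), called in all 12 such fits at 0.19 to 0.24, and for EIF3A it was 0.18 ± 0.053 (adjusted p = 0.041), lost without NRF2 with Cyss replicate 1 and without GFP without Cyss replicate 2, at 0.149 (adjusted p = 0.115) and 0.159 (adjusted p = 0.131), with a range of 0.15 to 0.20 over the 12 fits. For the remaining eIF4 genes no difference passed the test, among them those of the cap-binding protein EIF4E (0.14 ± 0.12) and of the helicase cofactors EIF4B (0.08 ± 0.063) and EIF4H (0.06 ± 0.058). EIF1, EIF2S2 and EIF4EBP1, DEGs in both populations, had differences of either sign (0.16, -0.15 and -0.13), none past the test.

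Promoter sequences were at hand for 39 of the 47 members, as the 250 bases before a start given for the gene in RefSeq on GRCh38.p14. The first window listed for a gene was used. Such a start can lie inside the gene as annotated elsewhere, and this was not checked. The window of EIF4G3, with 37.6% G and C bases, the lowest of the 39, may be such a case. On both strands the 39 windows were searched for TGATGNAA, the core of the element that ATF4 binds. Also searched for were TGACNNNGC, the core of the antioxidant response element that NRF2 binds, and the E-box CACGTG. TGATGNAA was in 0 of the 39 windows and in 3.14% of all 35116 windows, and no window was at hand for EIF4EBP1 or EIF2S2. TGACNNNGC was in 8 of 39 (20.5%), against 10.9% of all, and CACGTG in 11 of 39 (28.2%), against 6.34%. The sets are unlike: only the first window of a member was used, while every window of the reference was counted. They were not matched for gene type or base content, so the gaps between these shares are not a test of enrichment. Of the 5 members called in the interaction, the 4 with a window, all but EIF3A, each hold TGACNNNGC, and EIF1AX, EIF2A, EIF3J and EIF5 hold it too. The first 4 were picked by their calls, so their matches are no test of control by NRF2. Among them, EIF4G3 lost its call in 8 of the 12 fits that leave out a library. These 4 windows are shown because they belong to members that were higher together in NRF2 cells without Cyss. Capitals mark the matches to TGACNNNGC and CACGTG, and each sequence is written 5′ to 3′ on the strand of its gene. EIF4EBP2 is at chr10:70403895-70404144 (plus strand), EIF4G1 at chr3:184314356-184314605 (plus strand), EIF4G3 at chr1:21111384-21111633 (minus strand) and EIF5A2 at chr3:170908638-170908887 (minus strand).
EIF4EBP2: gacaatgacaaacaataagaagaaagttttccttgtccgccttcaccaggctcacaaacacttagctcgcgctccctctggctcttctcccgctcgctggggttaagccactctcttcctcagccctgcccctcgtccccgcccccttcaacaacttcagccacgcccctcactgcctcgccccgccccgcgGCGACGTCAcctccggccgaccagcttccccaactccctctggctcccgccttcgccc
EIF4G1: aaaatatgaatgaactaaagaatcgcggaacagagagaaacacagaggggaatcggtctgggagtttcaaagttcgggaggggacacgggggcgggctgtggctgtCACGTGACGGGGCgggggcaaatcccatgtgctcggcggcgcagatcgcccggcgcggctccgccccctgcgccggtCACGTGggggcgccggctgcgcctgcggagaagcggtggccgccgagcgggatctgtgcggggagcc
EIF4G3: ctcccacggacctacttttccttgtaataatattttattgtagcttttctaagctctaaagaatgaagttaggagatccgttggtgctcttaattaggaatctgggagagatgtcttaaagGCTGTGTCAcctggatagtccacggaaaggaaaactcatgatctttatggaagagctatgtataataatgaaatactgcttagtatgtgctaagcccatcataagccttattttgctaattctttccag
EIF5A2: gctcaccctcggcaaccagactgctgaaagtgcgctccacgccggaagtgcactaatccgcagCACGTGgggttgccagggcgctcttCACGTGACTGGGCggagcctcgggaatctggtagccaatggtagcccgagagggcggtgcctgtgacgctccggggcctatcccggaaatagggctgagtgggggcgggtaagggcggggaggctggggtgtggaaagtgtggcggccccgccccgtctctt

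In EIF4G1 and EIF5A2 the E-box and the antioxidant core run into each other and share 2 bases, at 144 bases before the start in EIF4G1 and at 162 in EIF5A2, and each window holds another E-box apart from it. That joined arrangement, which was looked for after these windows had been seen, is in 2 of 39 members and in 0.336% of all windows, the same unmatched set. In EIF4EBP2 and EIF4G3 the antioxidant core lies on the other strand, at 58 and 129 bases before the start that was used. A match of letters does not show that a factor binds there, and a window without one says nothing of the rest of the gene.

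The comparison of NRF2 with GFP cells in the same medium asks what NRF2 expression itself does to these mRNAs. With Cyss, 0 of 47 were DEGs in edgeR, where 1.36% of the 17449 genes tested were higher and 0.201% lower in NRF2 than in GFP cells. At any fold, 5 members were lower and 0 higher, where 2.28% and 4.15% of all genes were: EIF5B, the factor that joins the ribosomal subunits, at -0.14 ± 0.045 (adjusted p = 0.0924), EIF5 at -0.13 ± 0.034 (adjusted p = 0.0402), EIF3J at -0.13 ± 0.037, EIF2S1 at -0.12 ± 0.037 and EIF3E at -0.12 ± 0.035. Of the 47 log2FC, 34 were below 0, with a median of -0.044 against -0.0039 over all genes. DESeq2's Wald test also called 0 members in this comparison, and at an unadjusted p under 0.05 edgeR had 2 higher and 12 lower, where 10.4% and 8.60% of all genes were. Each of the 5 members lost its adjusted p in at least 1 fit with a library left out, with values of up to 0.347.

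Without Cyss, EIF5A2 was the only member that was a DEG between NRF2 and GFP cells, at 0.51 ± 0.070 (adjusted p = 0.00073), where 5.98% of the 17297 genes tested were higher and 4.09% lower. With scaling by library size only, the 1034 higher and 708 lower genes became 876 and 1001, and EIF5A2 was at 0.48. At any fold, 5 members were higher, against 14.0% of all genes, and 6 lower, against 14.7%. The other higher members were EIF4A1, EIF4G1 (0.23 ± 0.046), EIF4G3 (0.18 ± 0.044) and EIF4EBP2 (0.16 ± 0.050). The lower ones were EIF3E (-0.20 ± 0.054), EIF2S2 (-0.19 ± 0.058), EIF4A2 (-0.17 ± 0.049), EIF5B (-0.16 ± 0.047), EIF3L (-0.16 ± 0.046) and EIF3H (-0.15 ± 0.050). Of the 13 eIF3 genes, 3 are in that list and 0 were higher at any fold, while EIF3A and EIF3B were at 0.07 and 0.02. The comparisons of NRF2 with GFP cells share libraries with the responses to Cyss given above, so these values are not independent of them. Leaving out NRF2 without Cyss replicate 3 added EIF4E3 to the DEGs and leaving out GFP without Cyss replicate 3 added EIF4A1 at 0.33 (adjusted p = 0.0549), for 2 members in each case. Of the 10 members other than EIF5A2 that passed at any fold, EIF3E, EIF4G1 and EIF4G3 kept an adjusted p under 0.1 with each library left out, and the others reached 0.121 to 0.271.

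**Figure D4:**
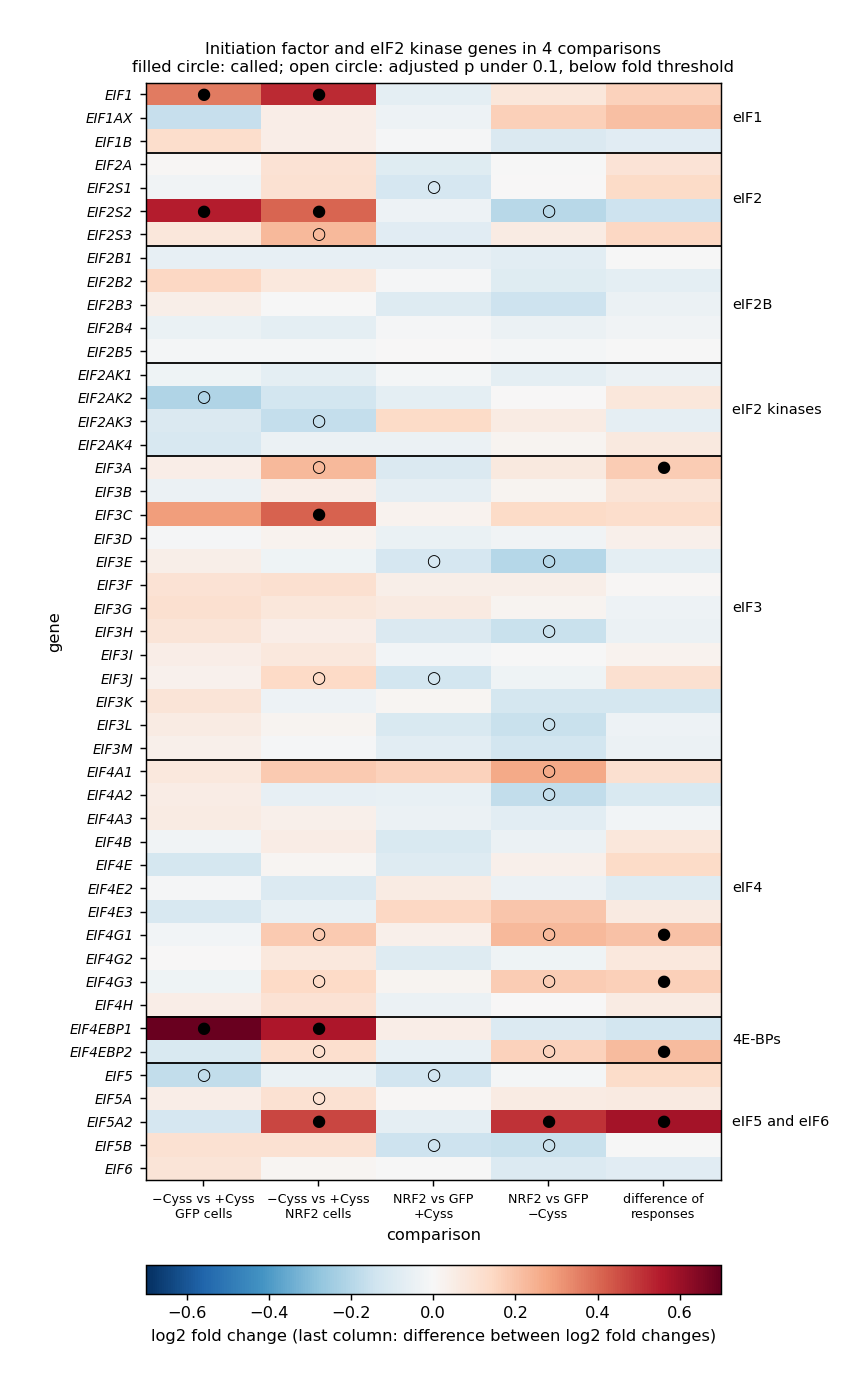
Log2 fold change (colour, blue lower and red higher) of the 47 members (rows, by complex) in the 4 comparisons and, in the last column, the log2FC of NRF2 cells minus that of GFP cells without against with Cyss; filled circles mark genes called and open circles an adjusted p under 0.1 below the fold threshold. The deepest colours are in the rows of EIF1, EIF2S2, EIF4EBP1 and EIF5A2, and the rows of eIF2B and the kinases hold no filled circle.

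Several members share their reads with copies in the genome. Of the 47, 18 have pseudogenes or close copies among the symbols counted, 54 in all, and for 8 members more than 10% of the reads on the member and its copies were counted on the copies. The share was 96.6% for EIF4A1, the main eIF4A helicase, for which 4652 reads stood on the gene over the 12 libraries and 105065 on EIF4A1P10 alone. It was 54.1% for EIF1AX, 45.4% for EIF2S2, 43.5% for EIF3F, 29.7% for EIF2S3 (on EIF2S3L), 23.9% for EIF4B, 20.6% for EIF4H and 19.5% for EIF5A (on EIF5AL1). The low level of EIF4A1 per kilobase, 2.01 CPM per kb, is that of the reads left on the gene itself, 47.4% of whose exon bases also lie in other annotated genes such as SENP3-EIF4A1. Exons also overlapped for EIF3L (51.8% of bases, of which 1767 bases in a lncRNA on the same strand and 460 in ANKRD54 on the other), EIF2B2 (23.6%), EIF4A2 (17.8%, with small nucleolar RNAs), EIF6 (17.35%) and EIF2B1 (15.6%, with DDX55 on the other strand). Strand was not used in counting, so reads that lay only on bases shared by 2 counted genes could not be assigned, whichever the strand. The counting mode sets such reads aside as ambiguous, and 3.16 to 3.38% of the reads in a file were so classed. Where the other gene was not counted, its reads there cannot be told apart from the member's.

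**Figure D5:**
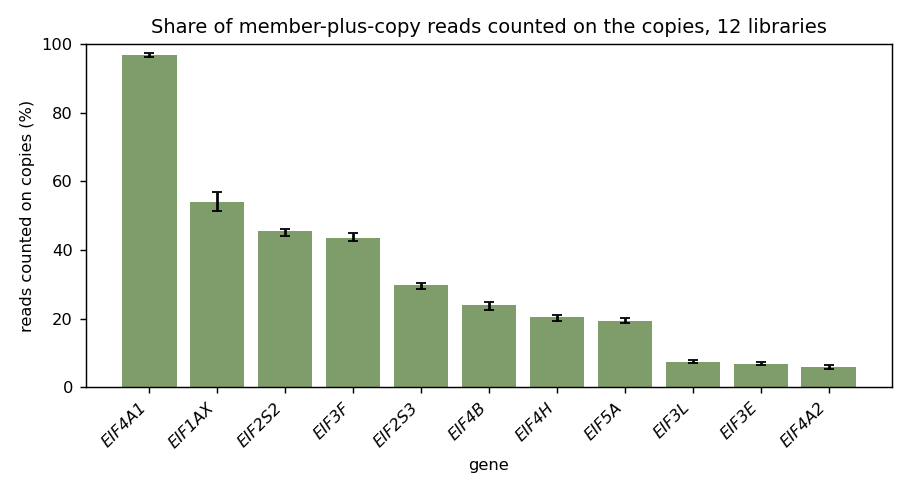
Percentage of the reads on a member and its copies together that were counted on the copies (vertical axis) for the members with more than 1% there (horizontal axis); bars are the pooled 12 libraries and whiskers the lowest and highest library. EIF4A1 stands at 96.6% and EIF1AX at 54.1%, with narrow ranges over the libraries.

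The rise of EIF2S2 was also present on its copies. EIF2S2P4 rose by a log2FC of 0.53 ± 0.038 (adjusted p = 1.50e-06) in GFP cells and 0.43 ± 0.055 (adjusted p = 3.98e-05) in NRF2 cells, and EIF2S2P2 and EIF2S2P3 were DEGs in the same direction in both. With the reads on all its copies added, EIF2S2 was at 0.54 ± 0.034 and 0.43 ± 0.055. For EIF4A1 the sum differed from the gene, as its log2FC in NRF2 against GFP cells without Cyss went from 0.26 ± 0.097 (adjusted p = 0.0719) to 0.01 ± 0.063. For EIF2S3 the difference of the responses stayed at 0.15 and passed the test with the copies added (adjusted p = 0.0988).

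Genes that work beside the members were listed by function, 46 in all, of which 45 were tested. In GFP cells 11 of the 45 rose without Cyss and none fell, where 1.57% of all genes rose and 0.533% fell. In NRF2 cells 11 rose and 1 fell, the release factor gene GSPT2 (-0.79 ± 0.31, adjusted p = 0.0827), where 6.81% of all genes rose and 5.14% fell. All 8 genes listed as ATF4 and its known targets rose in GFP cells and 7 of the 8 in NRF2 cells. Most of the 11 in either population are thus from the ATF4 list, so the counts over the 45 mainly reflect the choice of that list. ATF4 had 7312, 7695 and 7347 normalized counts in the GFP libraries with Cyss and 13104, 13440 and 13459 without, a log2FC of 0.84 ± 0.036 (adjusted p = 1.04e-08). In NRF2 cells ATF4 had 6840, 7231 and 7489 with Cyss and 10666, 11912 and 13020 without, a log2FC of 0.72 ± 0.062. The list's median log2FC was 1.30 in GFP cells and 1.14 in NRF2 cells. All 8 interaction values were below 0, and 4 passed the test: DDIT4, an mTORC1 inhibitor, at -0.72 ± 0.074 (adjusted p = 0.000122), DDIT3 (CHOP) at -0.35 ± 0.11, CHAC1, which degrades glutathione, at -0.29 ± 0.087, and ASNS, asparagine synthetase, at -0.20 ± 0.065. This list was chosen with earlier results known and leaves out other known targets, such as EIF4EBP1 and PPP1R15A. Their interaction values were of either sign, at -0.13 for EIF4EBP1, not past the test, and 0.44 for PPP1R15A, given below. The 8 therefore do not stand for all ATF4 targets. From these same libraries the paper names DDIT4 and DDIT3 among genes raised by deprivation and lowered by exogenous NRF2.

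The 2 genes of the subunits that bring phosphatase PP1 to eIF2α, and so undo the work of the kinases, differed in the opposite direction. PPP1R15A (GADD34) had 3483, 3725 and 3589 normalized counts in the GFP libraries with Cyss and 4296, 4597 and 5271 without, a log2FC of 0.39 ± 0.062 (adjusted p = 0.00283). In NRF2 cells it had 3562, 3785 and 3972 with Cyss and 6185, 6686 and 7266 without, a log2FC of 0.83 ± 0.059 (adjusted p = 1.36e-07). PPP1R15B (CReP) had log2FC of 0.31 ± 0.051, below the fold threshold, and 0.60 ± 0.055 (adjusted p = 1.59e-06). The difference between the responses was 0.44 ± 0.095 (adjusted p = 0.00776) for PPP1R15A and 0.29 ± 0.076 (adjusted p = 0.0243) for PPP1R15B, above 0 for both.

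Of the 3 regulators of the eIF2 kinases, DNAJC3, an inhibitor of PKR and PERK, was at -0.22 ± 0.049 (adjusted p = 0.0249) in GFP cells, below the fold threshold, and its response differed in NRF2 cells by 0.30 ± 0.086 (adjusted p = 0.0356). Among the 11 tested partners of the cap and the poly(A) tail, 2 rose in GFP cells: PDCD4, an inhibitor of eIF4A, by a log2FC of 0.51 ± 0.060 (adjusted p = 0.000229), and MKNK2, a kinase of eIF4E, by 0.33 ± 0.042 (adjusted p = 0.000434). LARP1, which binds the 5′ end of mRNAs for the translation machinery, rose in NRF2 cells by 0.33 ± 0.050 (adjusted p = 0.000227) and was at 0.06 ± 0.037 in GFP cells, a difference of 0.27 ± 0.062 (adjusted p = 0.0111). BZW1, a mimic of eIF5, rose in NRF2 cells by 0.37 ± 0.057, with a difference of 0.30 ± 0.076 (adjusted p = 0.0204). The helicase gene DDX3X (0.20 ± 0.051), the ABC protein gene ABCF1 (0.14 ± 0.053) and the release factor genes ETF1 (0.22 ± 0.057) and GSPT1 (0.19 ± 0.052) also differed in that direction, which makes 9 of 45 listed genes above 0 and 4 below, where 8.97% and 6.13% of all genes were. With scaling by library size only, 8 of the 45 were above 0 and 10 below. None of the 7 elongation factor genes and neither hypusine enzyme gene was a DEG in either response. Between NRF2 and GFP cells with Cyss, 1 of the 45 was higher, EEF1A2 (0.44 ± 0.088, adjusted p = 0.0103), where 1.36% of all genes were. Without Cyss, PPP1R15A was higher (0.49 ± 0.075, adjusted p = 0.00123) and DDIT4 (-0.73 ± 0.051) and DDIT3 (-0.36 ± 0.067) were lower, where 5.98% and 4.09% of all genes were.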

How the data were processed

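RNA-seq counts of 12 libraries, 3 in each of 4 groups, were used. Single-end reads had been aligned by the authors with TopHat 2.1.0 (hg19) and counted on exons with HTSeq 0.11.2, without regard to strand, in intersection-nonempty mode. The deposited values are raw read counts per gene symbol, and the annotation used is not given in the sources used here. From 15.9 to 17.1% of the reads in a file were unassigned and left out, as were 523 genes named as rRNA. With counts alone no molecule can be told from its PCR copies.

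Each comparison used its own 6 libraries, genes averaging 10 or more normalized counts in either group, TMM scaling and the quasi-likelihood test of edgeR 4.0.16 in R 4.3.3 with Benjamini-Hochberg adjustment. The interaction used all 12 libraries. The thresholds of the study (adjusted p 0.1, log2FC 0.32) were applied. DESeq2 1.42.0 was an alternative. Figures were drawn with matplotlib 3.10.9. The procedure was also run on simulated data whose planted changes were larger than those of the members, so that run does not cover changes of their size.

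Members, lists and tests were chosen with earlier results of these data known. All 47 members could be named, with every library's value for those called and for the eIF2 kinases and EIF2S1. Of the listed partner genes only those called were named. Positions are from GENCODE 44 lifted to GRCh37.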

Additional observations from a re-analysis of the deposited data

Results flagged for a closer look

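By the interaction test of edgeR on 12 libraries, 5 of 47 members had a larger log2FC on loss of Cyss in NRF2 cells than in GFP cells. None had a smaller one. Of all genes tested, 8.97% had a larger and 6.13% a smaller log2FC. The count of members above 0 is near the share of all genes, so it is not a result about the members as a set. With scaling by library size only, 3 members were above 0 and 2 below. The difference in log2FC, NRF2 minus GFP cells, was 0.58 for EIF5A2, 0.22 for EIF4EBP2, 0.20 for EIF4G1, 0.18 for EIF3A and 0.17 for EIF4G3. The call of EIF3A was lost in 2 and that of EIF4G3 in 8 of the 12 fits that leave out a library, over which the differences ranged from 0.15 to 0.20 and from 0.15 to 0.21.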

How the results depend on the processing

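The counts of members called were recomputed with DESeq2's size factors and Wald test, library size scaling, other filters on low counts, one fit over 12 libraries, an adjusted p under 0.05, no fold threshold, the replicate number as a block, each library left out, and, chosen after seeing the data, the reads on copies added. With no fold threshold, members down went from 0 to 2 in GFP cells, members up from 5 to 12 and down from 0 to 1 in NRF2 cells, members down from 0 to 5 for NRF2 against GFP with Cyss, and members up from 1 to 5 and down from 0 to 6 without Cyss. Under library size scaling the interaction had 3 members above and 2 below. Leaving out a library gave 3 to 4 members up in GFP cells, 4 to 5 in NRF2 cells, 1 to 2 for NRF2 against GFP without Cyss, 3 to 8 above and 0 to 2 below in the interaction. The interaction gave 3 without NRF2 with Cyss replicate 1 and without GFP without Cyss replicate 2, 8 without NRF2 without Cyss replicate 1, and 2 below (EIF2S2 and EIF4EBP1) without NRF2 without Cyss replicate 3. The shares of all genes called in these refits are not given beside the counts. The changes are therefore not shown to be particular to the members, and their cause was not tested.

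The replicate numbers did not mark pairs: 1 of 12 correlations between same-numbered libraries was above 0.1, and 2 or 3 of 6 libraries per comparison correlated best with their own number. With the replicate block the members up stayed at 3, 5, 0 and 1 in the 4 comparisons, none were down, and the interaction had 7 above (EIF1 and EIF2S3 added) instead of 5. The share of all genes above 0 in that interaction fit is not given here. EIF2AK2 in NRF2 cells, at -0.13, then had an adjusted p of 0.0561.

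Values near 0 changed sign. Under library size scaling, NRF2 against GFP without Cyss was -0.030 for EIF2S1, -0.031 for EIF2AK2 and -0.015 for EIF2AK4. EIF2AK2 in that comparison was -4.53e-05 without a filter and -0.00051 with the replicate block. With a library left out it ranged from -0.086 to 0.084, EIF2AK4 from -0.0073 to 0.042 and EIF2S1 from -0.017 to 0.033. EIF2AK1 in NRF2 against GFP with Cyss ranged from -0.033 to 0.013 and the interaction of EIF2AK2 from -0.013 to 0.16. The call of EIF4G3 was also lost under library size scaling, at an adjusted p under 0.05 and without a filter, and that of EIF3A under library size scaling. With few counts, EIF3C and EIF4E3 had wide standard errors (0.14 and 0.13 in the NRF2 response).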
